A study of Mus musculus with 8 samples.

Results

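The genes described here are *Trp53*, which encodes the transcription factor p53, and 9 genes whose transcription p53 is known to raise: *Mdm2*, *Cdkn1a*, *Ccng1*, *Bax*, *Bbc3*, *Trp53inp1*, *Eda2r*, *Phlda3* and *Sesn2*. They were chosen by name, and their Ensembl identifiers were looked up in a table of read counts for 49585 genes, in which all 10 were found. All 10 were among the 23113 genes that passed the filter on low counts and were tested.

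Transcripts were counted by RNA-seq in 8 whole brains, each from a newborn female, and all 8 pups were (C57BL/6 x CAST/EiJ) F1 hybrids with a C57BL/6J mother and a CAST/EiJ father, labelled postnatal day 1. The dams of 4 pups had 0 ppm cadmium chloride (CdCl2) in their drinking water and the dams of the other 4 had 50 ppm, before mating and through gestation, and each pup came from a different litter. Each library was made from poly(A) RNA of 1 brain, and the total number of reads counted on genes was 29704044, 26741649, 30708087 and 25765997 for 0 ppm replicates 1 to 4 and 27943397, 28344410, 28163329 and 22916434 for 50 ppm replicates 1 to 4. The replicate numbers follow only the order of the samples and pair no pups. The question asked is whether maternal cadmium exposure goes with a difference in the transcripts of p53 and its targets in the brain at birth.

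p53 is held at a low level in unstressed cells because MDM2, the product of one of its own targets, marks it for degradation. DNA damage and other stresses free p53 from MDM2, mostly without a change in *Trp53* transcripts, and p53 then binds a pair of short motifs, called half-sites, near its targets. The targets stop the cell cycle, start apoptosis through the mitochondria, or adjust metabolism and growth signalling. In the developing brain, p53 is best known for the death of dividing neural progenitors and young neurons with damaged DNA. Transcript levels of the targets are often used as a readout of p53 activity, but the protein itself was not measured in these libraries.

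Because the genes are grouped by a shared transcription factor, their promoters are shown first. RefSeq promoter windows of 300 bases (GRCm38.p6, 250 bases before to 50 after a start site) were found for 9 of the 10 genes, with 12 windows in all. The p53 half-site motif, which is 10 bases long and reads the same on both strands, was matched exactly in 5 of the 12 windows and in 8.36% of 32851 windows of the same length. A full site, taken as 2 half-sites at most 13 bases apart with at most 2 mismatches together and the core C and G of each kept, was matched in 3 of the 12 windows, those of *Cdkn1a*, *Ccng1* and *Bax*, and in 4.085% of all windows. The windows of *Mdm2* and *Trp53* held 1 half-site each, while no half-site was matched in those of *Bbc3*, *Phlda3*, *Eda2r* and *Sesn2* or in the second window of *Cdkn1a*. Targets of p53 can carry its sites outside such a window, so a window without a match says only that these letters are not in it. The genes were chosen for their link to p53, and some had more than 1 window, with overlap among those of *Bbc3*. The shares are therefore a description and not a test.

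The matched sites are given 5′ to 3′ on the strand of the gene, with the match in capitals and up to 20 bases on each side in lower case. The 3 full sites come first, followed by the half-sites of *Mdm2* and *Trp53*.
Cdkn1a, chr17:29090908-29090967, plus strand, 1 mismatch, no spacer: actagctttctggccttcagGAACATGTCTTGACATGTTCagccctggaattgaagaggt
Ccng1, chr11:40755442-40755501, minus strand, 1 mismatch, no spacer: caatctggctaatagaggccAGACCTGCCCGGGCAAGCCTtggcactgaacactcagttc
Bax, chr7:45467059-45467119, minus strand, 2 mismatches, spacer of 1 base: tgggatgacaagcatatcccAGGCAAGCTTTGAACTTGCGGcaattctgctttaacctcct
Mdm2, chr10:117710915-117710964, minus strand, half-site: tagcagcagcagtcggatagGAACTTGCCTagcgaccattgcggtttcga
Trp53, chr11:69580264-69580313, plus strand, half-site: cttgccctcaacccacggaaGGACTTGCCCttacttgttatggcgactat
All 5 stretches lie upstream of the start site. Another full-site match of *Cdkn1a*, with 0 mismatches and a spacer of 12 bases, shares a half-site with the one shown. A second match of *Ccng1* and of *Bax* likewise overlaps the one shown. For each of these genes the match with the shorter spacer is shown.

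The tissue was checked by its markers before the comparison. The 6 neuron markers together had 3842 to 4401 CPM (reads of a gene relative to the TMM-normalized total of its library) in each library, and *Map2* was the most abundant with a mean of 1855 CPM. *Tubb3*, a tubulin gene that neurons transcribe strongly, was listed at 0 in all 8 libraries, so a 0 in this table is not evidence that a gene is silent. Among the genes examined here, *Bcl2l2* and *Hoxa3* were also listed at 0 throughout.

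The libraries 0 ppm replicates 1 and 2 stood apart from the other 6. The summed level of 10 hindbrain and spinal cord markers was 0.273 and 2.90 CPM in these 2 libraries, 41.3 and 52.7 CPM in 0 ppm replicates 3 and 4, and 171, 71.7, 45.7 and 67.6 CPM in the 50 ppm replicates 1 to 4. *Slc6a5*, the glycine transporter of inhibitory neurons of the hindbrain and spinal cord, was the most abundant of these markers with a mean of 24.9 CPM. Of the 9 markers tested, all were higher at 50 ppm at an unadjusted p under 0.05 and 3 (*Hoxb8*, *Hoxb7* and *Hoxb6*) had an adjusted p under 0.05 with edgeR, against 2.31% and 0.0173% of all genes. At the unadjusted threshold 3 of the 9 were higher with DESeq2, with a robust fit or without 50 ppm replicate 1, and 6 without 0 ppm replicates 1 and 2, when *Hoxb7* and *Hoxb8* had an adjusted p under 0.05. The 10 genes, the pathway lists and the markers were also fitted without these 2 libraries, an alternative chosen after the data were seen. The part of this marker difference in the other results was not tested beyond that.

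None of the 10 genes differed between doses at an adjusted p under 0.05 in the quasi-likelihood test of edgeR, where p-values were adjusted by Benjamini-Hochberg over the whole table, against 4 of 23113 genes (0.0173%) in the same test, and DESeq2 called none of the 10 either. At an unadjusted p under 0.05 there was 1 of the 10, *Bbc3*, against 866 of all genes (3.75%). *Bbc3* was lower at 50 ppm, as were 332 of all genes at this threshold (1.44%), and none of the 10 was higher, against 534 of all genes (2.31%). With 1 library left out, 3.20% to 5.08% of all genes had an unadjusted p under 0.05, and without 0 ppm replicates 1 and 2 together 4.28%. In no gene of the 10 were the doses separated, with every exposed brain on the same side of every control, against 484 of all genes (2.09%). These shares for the 10 genes are near the background of the whole table. The log2 fold change (50 ppm over 0 ppm) was negative for 7 and positive for 3 of the 10, where 51.0% of all genes were negative, and the median was -0.083 against -0.0033 over all genes tested. Without 0 ppm replicate 2 the median of the 10 was -0.014. The adjusted p was 0.999 for each of the 10 genes.

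**Figure D1:**
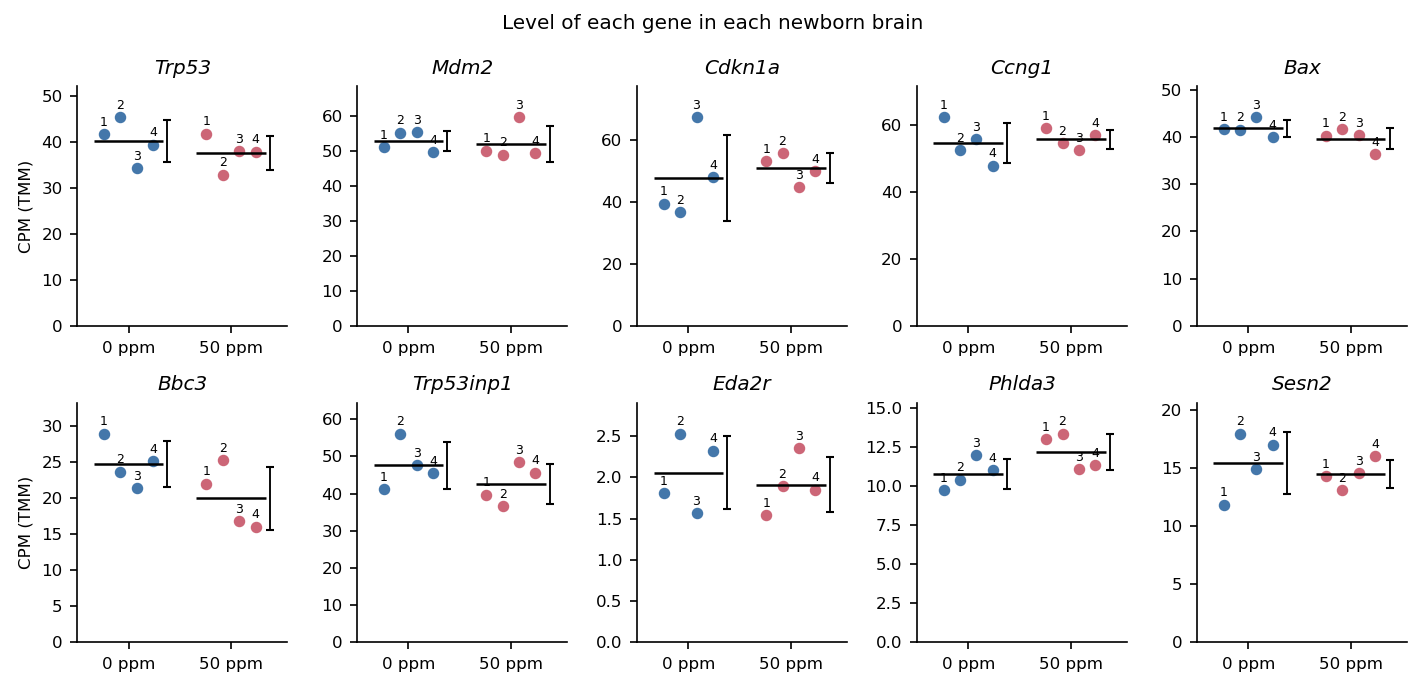
Level of *Trp53* and 9 p53 targets in each newborn brain, in CPM after TMM normalization, with each panel's axis starting at 0. Points are single brains marked with their replicate number (blue 0 ppm, red 50 ppm), the line is the mean and the bar beside it the SD of 4 brains. The groups overlap in every panel, and the 67.5 CPM of *Cdkn1a* in 0 ppm replicate 3 stands above the other 7 brains.

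*Trp53* (ENSMUSG00000059552, chr11:69580359-69591873 of GRCm38, plus strand) encodes p53 itself. It had 41.7, 45.3, 34.3 and 39.3 CPM in the control brains and 41.7, 32.8, 37.9 and 37.8 CPM in the exposed brains. The highest value was in a control brain, the lowest in an exposed one, and the groups overlapped. The log2 fold change was -0.095 (standard error, SE, 0.096, unadjusted p = 0.336 with edgeR), and its 95% interval, from -0.30 to 0.11, corresponds to a change between -18.6% and 7.71%. The log2 fold change of *Trp53* was -0.16 without 0 ppm replicate 3 (unadjusted p = 0.0988), -0.032 without 0 ppm replicate 2 (unadjusted p = 0.748), -0.035 without 50 ppm replicate 2 (unadjusted p = 0.726) and 0.028 without 0 ppm replicates 1 and 2 together (unadjusted p = 0.802).

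*Mdm2* (ENSMUSG00000020184, chr10:117688875-117710758, minus strand) encodes the ubiquitin ligase that limits p53, and its transcription by p53 closes a feedback loop. It had 51.1, 55.4, 55.4 and 49.8 CPM in controls and 50.2, 49.0, 59.7 and 49.5 CPM in exposed brains. The exposed replicates 2 and 4 lay slightly below every control, replicate 1 within the control range and replicate 3 above every control. The difference was -0.022 on the log2 scale (SE 0.082, unadjusted p = 0.790 with edgeR), with a 95% interval from -12.6% to 10.9%. It was closer to 0 than that of any other gene of the 10, and its sign turned when any 1 of 4 libraries was left out.

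*Cdkn1a* and *Ccng1* are the targets tied to the cell cycle. *Cdkn1a* (ENSMUSG00000023067, chr17:29090976-29100727, plus strand) encodes p21, the inhibitor of cyclin-dependent kinases through which p53 stops dividing cells, and carries the full site shown above. Its level was 39.6, 36.8, 67.5 and 48.1 CPM in the control brains and 53.3, 56.0, 44.96 and 50.2 CPM in the exposed brains. The control brains included both the lowest and the highest value, and the exposed brains all lay between them. The means were 48.0 ± 13.9 CPM (SD, n = 4) and 51.1 ± 4.73 CPM (SD, n = 4), which differed by 0.090 on the log2 scale (SE 0.14, unadjusted p = 0.530 with edgeR) with a 95% interval from -13.3% to 30.6%.

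The *Cdkn1a* difference rested on which control brains were included. Without 0 ppm replicate 3 it was 0.30 on the log2 scale (unadjusted p = 0.00813, adjusted p = 0.671 with edgeR, against adjusted p-values of 0.671 to 1.000 over all alternatives), without 0 ppm replicate 1 it was 0.0078, without 0 ppm replicate 2 it was -0.018, and without 0 ppm replicates 1 and 2 together it was -0.18 (unadjusted p = 0.131). The fit without 0 ppm replicate 3 also had the largest share of all genes at an unadjusted p under 0.05 (5.08%) among the fits run. The biological coefficient of variation of *Cdkn1a*, the relative spread between brains beyond counting noise, was 0.143, while the trend for genes of its abundance was 0.0933. *Cdkn1a* was the gene of the 10 with the largest excess over that trend. An antisense gene covers 7.68% of the exon length of *Cdkn1a*, and the strand setting of the counting was not given in the sources used here, so reads of the 2 genes may be mixed there.

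*Ccng1* (ENSMUSG00000020326, chr11:40748552-40755311, minus strand) encodes cyclin G1, which brings a phosphatase to MDM2. It had 62.4, 52.6, 55.7 and 47.9 CPM in controls and 59.0, 54.6, 52.6 and 57.04 CPM in exposed brains. All exposed brains lay within the control range. Its log2 fold change was 0.030 (SE 0.084, unadjusted p = 0.725 with edgeR), the 95% interval reached from -9.67% to 15.4%, and the sign turned without 0 ppm replicate 4 (-0.028). It was 0.10 without 0 ppm replicates 1 and 2 together (unadjusted p = 0.303).

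Among the targets that act in apoptosis, *Bbc3* (ENSMUSG00000002083, chr7:16308393-16318205, plus strand) encodes PUMA, a BH3-only protein that binds the survival members of the Bcl2 family and is a main effector of the death of neurons after p53 activation. It had 29.0, 23.7, 21.4 and 25.2 CPM in the control brains and 22.0, 25.3, 16.8 and 16.1 CPM in the exposed brains. The exposed replicates 3 and 4 lay below every control, whereas the exposed replicates 1 and 2 lay within the control range. The means were 24.8 ± 3.18 CPM (SD, n = 4) and 20.1 ± 4.37 CPM (SD, n = 4), and the log2 fold change was -0.31 (SE 0.13, unadjusted p = 0.0352, adjusted p = 0.999 with edgeR). The 95% interval reached from -33.4% to -1.63%, and *Bbc3* ranked at 614 of 23113 genes by p.

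The direction of *Bbc3* was the same in all 14 alternatives tried, with log2 fold changes from -0.44 to -0.22, and its adjusted p-values lay between 0.802 and 1.000. Its unadjusted p was over 0.05 without 0 ppm replicate 1 (0.127), without 0 ppm replicate 4 (0.0644), without 50 ppm replicate 3 (0.136), without 50 ppm replicate 4 (0.140) and without 0 ppm replicates 1 and 2 together (0.167). In whole brain RNA, fewer cells of a type and less RNA per cell cannot be told apart.

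*Bax* (ENSMUSG00000003873, chr7:45461697-45466898, minus strand) encodes the protein that forms pores in the outer mitochondrial membrane once it is activated. It had 41.6, 41.6, 44.2 and 39.9 CPM in controls and 40.3, 41.7, 40.4 and 36.4 CPM in exposed brains. The 2 groups overlapped, although all 4 exposed brains lay below the control mean. This was the narrowest interval of the 10 genes, from -15.2% to 6.16% around a log2 fold change of -0.075 (SE 0.077, unadjusted p = 0.340 with edgeR). That value was -0.048 without 0 ppm replicate 3 and -0.037 without 50 ppm replicate 4. A predicted gene on the same strand covers 12.2% of the exon length of *Bax*, where its counts are uncertain.

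*Trp53inp1* (ENSMUSG00000028211, chr4:11156431-11174379, plus strand) encodes a stress-induced nuclear protein that promotes p53 activity and autophagy. It had 41.2, 56.1, 47.7 and 45.5 CPM in control brains and 39.7, 36.7, 48.5 and 45.7 CPM in exposed brains. The exposed replicates 1 and 2 lay below every control and the exposed replicates 3 and 4 within the control range, so the brains with low *Trp53inp1* were not the ones with low *Bbc3*. The log2 fold change was -0.16 (SE 0.10, unadjusted p = 0.138 with edgeR), with a 95% interval from -22.9% to 3.995%. Without 0 ppm replicate 1 it was -0.22 (unadjusted p = 0.0463), and without 0 ppm replicate 2 it was -0.072 (unadjusted p = 0.484).

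*Eda2r* (ENSMUSG00000034457, chrX:97333840-97377216, minus strand) encodes a receptor of the tumour necrosis factor family for the ligand EDA-A2. It was the least abundant of the 10 genes, with 1.54 to 2.53 CPM over the 8 libraries, above the 0.0980 to 0.132 CPM that a count of 0 allows (3 reads, counting error only). Its interval was the widest, from -32.0% to 28.0% around a log2 fold change of -0.10 (SE 0.22, unadjusted p = 0.650 with edgeR), and the log2 fold change was 0.015 without 0 ppm replicate 2 and -0.019 without 0 ppm replicates 1 and 2 together.

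*Phlda3* and *Sesn2* link p53 to growth signalling. *Phlda3* (ENSMUSG00000041801, chr1:135766119-135769136, plus strand) encodes a small protein that keeps the kinase AKT from the membrane. It had 9.73, 10.4, 11.98 and 11.0 CPM in controls and 13.02, 13.3, 11.1 and 11.3 CPM in exposed brains. All 4 exposed brains lay above the control mean and 2 above every control, and only 0 ppm replicate 3 made the groups overlap. Without that library, 5.52% of all genes had groups that did not overlap. The log2 fold change was 0.18 (SE 0.12, unadjusted p = 0.147 with edgeR), with a 95% interval from -4.63% to 34.1%. Without 0 ppm replicates 1 and 2, the controls in which *Phlda3* was lowest, it was 0.082 (unadjusted p = 0.580). *Sesn2* (ENSMUSG00000028893, chr4:132492032-132510501, minus strand) encodes a leucine sensor that restrains mTORC1, and is also a target of the stress factor ATF4. It lay between 11.8 and 17.9 CPM in controls and between 13.1 and 16.0 CPM in exposed brains, a log2 fold change of -0.090 (SE 0.13, unadjusted p = 0.487 with edgeR). All exposed brains were within its control range. The log2 fold change of *Sesn2* was -0.20 without 0 ppm replicate 1 (unadjusted p = 0.110), -0.0090 without 0 ppm replicate 2 (unadjusted p = 0.946) and -0.14 without both (unadjusted p = 0.299).

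**Figure D2:**
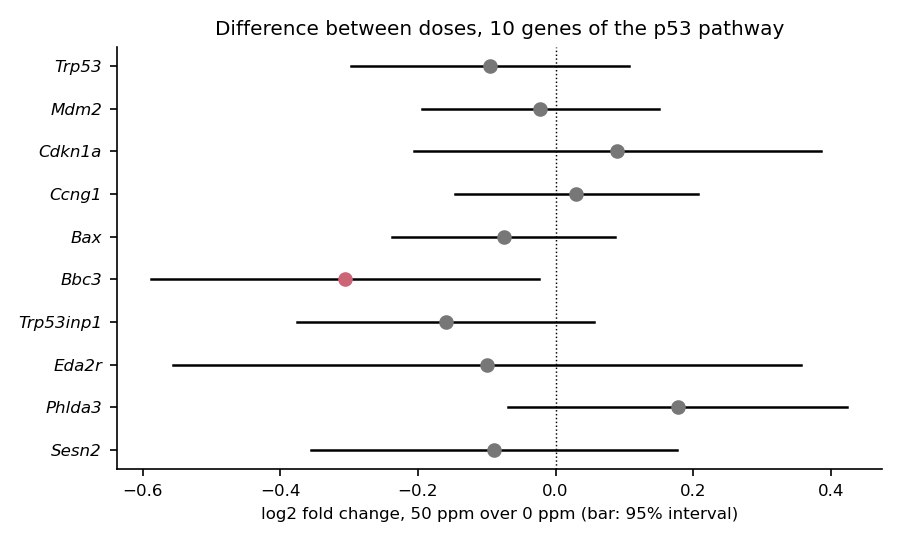
Log2 fold change of each gene, 50 ppm over 0 ppm (horizontal axis), with its 95% interval as a bar. The red point is *Bbc3*, whose interval from -0.59 to -0.024 does not reach 0 before adjustment over all genes, and the grey points are the 9 genes whose intervals hold 0.

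In the fit of all 8 libraries, the upper ends of these intervals limit how far the targets could have risen. For *Mdm2*, *Ccng1*, *Bax*, *Trp53inp1* and *Sesn2* the upper end was at most 15.4%, for *Bbc3* it was below 0, and for *Eda2r*, *Cdkn1a* and *Phlda3* it was 28.0%, 30.6% and 34.1%. These limits moved with the libraries included and, for *Cdkn1a*, with the fit, as its upper end was 44.9% in a robust fit. Without 0 ppm replicate 2 the upper end was 10.2% for *Trp53inp1*, 20.3% for *Sesn2* and 41.0% for *Eda2r*, without 0 ppm replicate 3 it was 9.29% for *Bax*, 41.5% for *Phlda3* and 42.9% for *Cdkn1a*, and without 0 ppm replicate 1 it was 21.1% for *Ccng1*. For *Bbc3* it was above 0 in 4 of the 8 fits with 1 library left out, up to 5.70% without 50 ppm replicate 4. In the fit without 0 ppm replicates 1 and 2 it was 4.13% for *Cdkn1a*, 6.94% for *Bbc3*, 23.4% for *Ccng1* and 43.99% for *Eda2r*. The intervals are for whole brains, and a change in few cells would be diluted in them.

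Levels were compared between genes per kb of exon length, over all 8 libraries. *Bax* was the most abundant, with a mean of 25.9 ± 1.40 CPM per kb (SD, n = 8), and its range did not overlap that of *Ccng1* (15.7 ± 1.26), the second. From *Ccng1* through *Cdkn1a* (13.9 ± 2.74), *Bbc3* (10.6 ± 2.05), *Mdm2* (10.3 ± 0.761), *Trp53* (9.61 ± 1.01), *Phlda3* (7.37 ± 0.793) and *Trp53inp1* (6.97 ± 0.931), the range of each gene overlapped that of the next, so the order of these neighbours is not resolved. *Sesn2* (4.30 ± 0.574 CPM per kb) lay below them without overlap, and *Eda2r* (0.337 ± 0.0633 CPM per kb) lay 12.8 times below *Sesn2*.

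**Figure D3:**
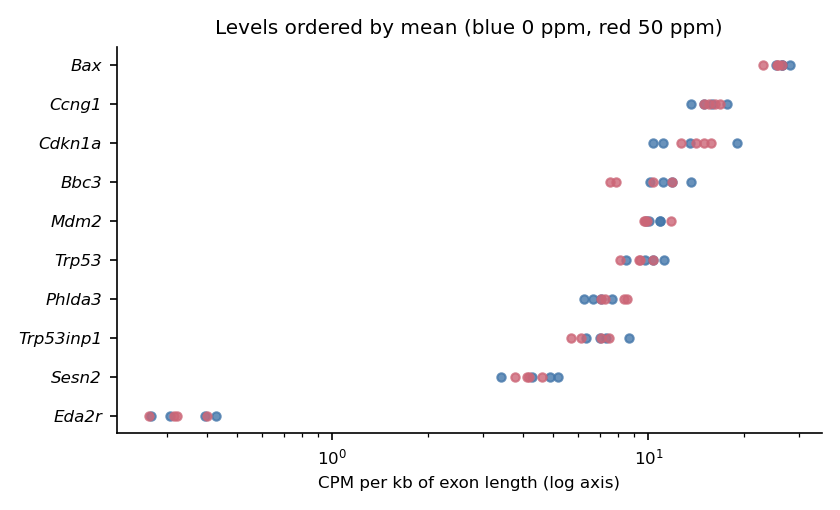
CPM per kb of exon length (horizontal log axis) for the 10 genes, ordered by their mean. Each point is 1 brain (blue 0 ppm, red 50 ppm). *Bax* lies above and *Sesn2* and *Eda2r* lie below the other genes, whose ranges overlap from one to the next.

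The genes were also compared with each other across the 8 brains. Of the 45 pairs, 21 had a positive and 24 a negative Pearson's r of log2 CPM, with a median of -0.041, and none passed a permutation test over all pairings after Benjamini-Hochberg adjustment over the 45 pairs. The smallest p of Pearson's r belonged to *Trp53* and *Cdkn1a*, which went in opposite directions (r = -0.80, exact permutation p = 0.0194, adjusted p = 0.437; Spearman's rho = -0.71, exact permutation p = 0.0576, adjusted p = 0.520). After the mean of each dose was subtracted r was -0.78, and without the 2 brains farthest from the median of *Trp53* it was -0.72. *Cdkn1a* and *Phlda3* were the most positive pair and had the smallest p of Spearman's rho (r = 0.76, exact permutation p = 0.0278, adjusted p = 0.437; rho = 0.88, exact permutation p = 0.00724, adjusted p = 0.326), with r = 0.80 after the dose means were subtracted and r = 0.95 without the 2 brains farthest from the median of *Cdkn1a*. No sequencing batch was given in the sources used here, so no value within batches could be computed.

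Among 14601 other genes with a mean of at least 1 CPM, those whose log2 CPM followed *Cdkn1a* most closely over the 8 libraries included *Phyh* (r = 0.97), *Naalad2* (r = 0.97), *Ap1s2* (r = 0.96) and *Samd4* (r = 0.96). These are among the highest values of a search through many genes and are given as a description. Each had its highest level in 0 ppm replicate 3 and its lowest in 0 ppm replicate 2, as *Cdkn1a* did, and none of them had an unadjusted p under 0.05 between doses with edgeR (0.460 to 0.952). *Phyh*, a peroxisomal enzyme of fatty acid oxidation, had 40.8 CPM in 0 ppm replicate 3 and 27.6 CPM in 0 ppm replicate 2.

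The wider set of p53 targets was taken from a list of 40 further genes, all of which were tested. None had an adjusted or an unadjusted p under 0.05 with edgeR, none had groups that did not overlap, and 18 had a positive and 22 a negative log2 fold change, with a median of -0.027. The median was positive without 0 ppm replicate 1 (0.0096), without 0 ppm replicate 2 (0.0080) and without both (0.052). The smallest unadjusted p-values belonged to *Apaf1*, the scaffold of the apoptosome (-0.18, unadjusted p = 0.129 with edgeR), *Dram1*, a lysosomal protein of autophagy (0.29, unadjusted p = 0.148), and *Btg2*, which restrains the division of neural progenitors (-0.16, unadjusted p = 0.168). With 1 control brain left out, 1 gene of the list had an unadjusted p under 0.05, which was *Apaf1* without 0 ppm replicate 3 (-0.30, unadjusted p = 0.00383), *Dram1* without 0 ppm replicate 1 (0.47, unadjusted p = 0.0244) and *Dcxr* without 0 ppm replicate 2, and there was none without 0 ppm replicate 4. *Dram1* was at 0.14 without 0 ppm replicate 2 (unadjusted p = 0.430), and *Btg2* at -0.085 without 50 ppm replicate 4 (unadjusted p = 0.443). Without 0 ppm replicates 1 and 2 together none passed, and *Apaf1* was at -0.042 (unadjusted p = 0.734). *Gdf15* and *Lif*, which encode secreted factors, had at most 3 reads in any library, so no fold change is given for them, and the median without them was -0.030.

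Regulators of p53 likewise gave no call. Of 19 genes for kinases, acetyltransferases, binding proteins and family members of p53, none had an adjusted or an unadjusted p under 0.05 with edgeR, and the median log2 fold change was -0.015, with 12 of 19 negative. The median was 0.014 without 0 ppm replicates 1 and 2, with 9 of 19 negative. *Trp53bp2*, which encodes the p53-binding protein ASPP2 that directs p53 to apoptotic targets, had the smallest unadjusted p (-0.16, unadjusted p = 0.0870), followed by the p53 relative *Trp73* (-0.21, unadjusted p = 0.113) and *Ppp1r13l*, which encodes the inhibitor iASPP (-0.26, unadjusted p = 0.150). The values of *Trp53bp2* were 50.6, 58.8, 46.2 and 54.8 CPM in controls and 52.0, 43.2, 46.7 and 46.8 CPM in exposed brains, so the groups overlapped. It had an unadjusted p under 0.05 without 0 ppm replicate 3 (-0.21, unadjusted p = 0.0238) and without 50 ppm replicate 1 (-0.20, unadjusted p = 0.0410). Without 0 ppm replicates 1 and 2 the log2 fold change was -0.10 for *Trp53bp2*, -0.11 for *Trp73* and -0.056 for *Ppp1r13l*.

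*Bax* and *Bbc3* belong to the Bcl2 family, whose members restrain or promote the release of cytochrome c from mitochondria, which activates caspases. Of 17 other genes of this family and of the caspase cascade that were tested, none had an adjusted or an unadjusted p under 0.05 with edgeR, and the median log2 fold change was -0.0057, with 9 of 17 negative. It was -0.034 without 0 ppm replicates 1 and 2, with 13 of 17 negative, and positive without 0 ppm replicate 3 (0.018), 50 ppm replicate 3 (0.0078) or 50 ppm replicate 4 (0.0080). The survival gene *Mcl1* was the 1 gene of the 17 whose groups did not overlap, against 2.09% of all genes. It had 154 to 165 CPM in controls and 143 to 152 CPM in exposed brains, a log2 fold change of -0.099 (SE 0.063, unadjusted p = 0.132). *Bcl2l1*, which encodes Bcl-xL, had a log2 fold change of -0.081 (unadjusted p = 0.270). *Mcl1* was at -0.061 and *Bcl2l1* at -0.049 without 0 ppm replicates 1 and 2. *Bik* had at most 5 reads in any library and at most 3 in any control, and no fold change is given for it.

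The list of 20 genes of mitosis and S phase, whose transcription is held down when p21 is active, had 18 negative and 2 positive log2 fold changes with a median of -0.15, where 51.0% of all genes were negative. None had an adjusted p under 0.05 with edgeR, and 2 had an unadjusted p under 0.05, both lower at 50 ppm, as were 1.44% of all genes. *Cdc20*, an activator of the anaphase-promoting complex, had 12.9, 14.8, 11.0 and 9.91 CPM in control brains and 8.31, 8.08, 10.4 and 10.1 CPM in exposed brains (log2 fold change -0.40, SE 0.14, unadjusted p = 0.0110, adjusted p = 0.999). The mitotic cyclin *Ccnb2* had 7.41, 7.07, 7.64 and 7.40 CPM and 4.77, 4.14, 7.74 and 5.12 CPM (log2 fold change -0.44, SE 0.17, unadjusted p = 0.0192, adjusted p = 0.999). In *Ccnb2* the exposed replicate 3 lay above every control and the other 3 exposed brains below every control. *Cenpa*, a centromere histone, followed with -0.28 (unadjusted p = 0.0649).

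This pattern of the cell division list was smaller without the 2 control brains that stood apart. The summed level of the 20 genes was 354, 371, 306 and 279 CPM in 0 ppm replicates 1 to 4 and 291, 252, 330 and 307 CPM in 50 ppm replicates 1 to 4, so that 0 ppm replicates 1 and 2, the libraries almost without hindbrain and spinal cord markers, were the highest. Without these 2 the median log2 fold change was -0.021, with 11 of 20 genes negative and 1 gene (*Ccnb2*) at an unadjusted p under 0.05, while *Cdc20* was at -0.19 (unadjusted p = 0.243). With single libraries left out the median was closer to 0 without 0 ppm replicate 2 (-0.092) or 50 ppm replicate 2 (-0.092) and farther from 0 without 0 ppm replicate 3 (-0.21), 0 ppm replicate 4 (-0.21) or 50 ppm replicate 3 (-0.22). The number of genes at an unadjusted p under 0.05 in these fits ranged from 1, without 0 ppm replicate 2 or 50 ppm replicate 2, to 5, without 0 ppm replicate 4. It was 4 without 50 ppm replicate 3. All of them were lower at 50 ppm, as were 1.35%, 1.65%, 1.38% and 1.31% of all genes at that threshold in these 4 fits. The unadjusted p of *Ccnb2* with edgeR was 0.0569 without 50 ppm replicate 1, 0.0776 without 50 ppm replicate 2 and 0.0500002 without 50 ppm replicate 4. For *Cdc20* it was 0.0529 without 0 ppm replicate 2 and under 0.05 without any other single library.

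The integrated stress response, which raises *Sesn2* through ATF4 without p53, was compared in 10 genes. None had an adjusted or an unadjusted p under 0.05 with edgeR, 6 were positive and 4 negative, and the median was 0.065. Without 50 ppm replicate 2 the median was -0.018, and without 0 ppm replicates 1 and 2 it was 0.054 with 1 gene, *Slc7a11*, higher at an unadjusted p under 0.05. *Asns*, which encodes asparagine synthetase, was higher in each exposed brain (72.0 to 78.6 CPM) than in each control (67.2 to 69.6 CPM), with a log2 fold change of 0.12 (unadjusted p = 0.0919). It was the 1 gene of these 10 whose groups did not overlap, against 2.09% of all genes. *Vldlr*, a receptor of reelin, had -0.13 (unadjusted p = 0.117) and *Psat1*, an enzyme of serine synthesis, 0.092 (unadjusted p = 0.212). *Vldlr* had an unadjusted p under 0.05 without 0 ppm replicate 3 (-0.19, unadjusted p = 0.0291) and was at -0.025 without 0 ppm replicates 1 and 2.

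**Figure D4:**
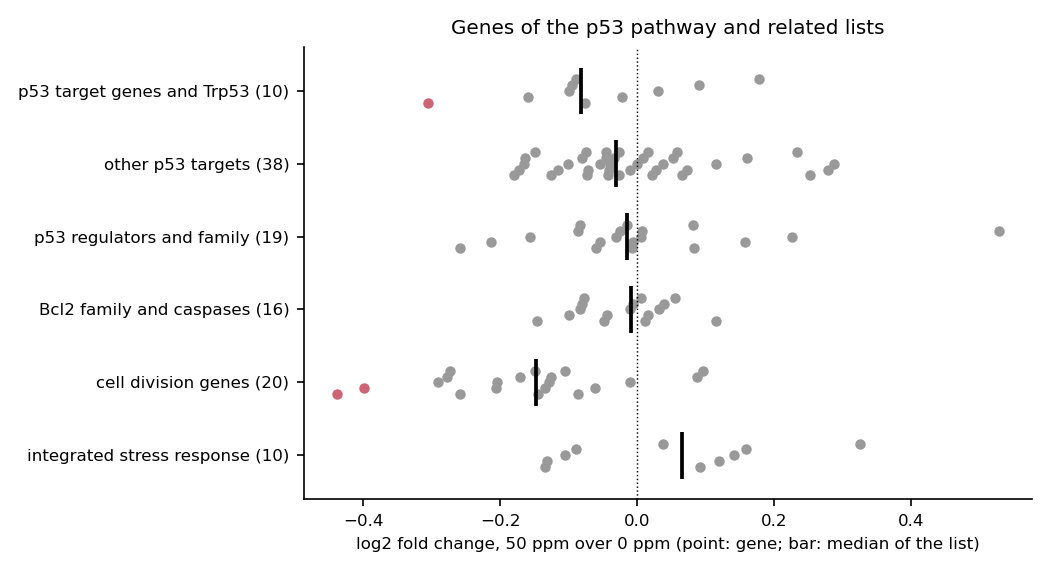
Log2 fold change of each gene, 50 ppm over 0 ppm (horizontal axis), in 6 lists, with the number of genes drawn in brackets. Points are genes, red at an unadjusted p under 0.05, and the bar is the median of the list. Genes with at most 3 reads in every library of a dose are not drawn. The medians lie between -0.15 for the cell division genes and 0.065 for the integrated stress response.

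Markers of the cell types in the brain were compared in the same fit, in which 2.31% of all genes were higher at an unadjusted p under 0.05 and 0.0173% had an adjusted p under 0.05. Of 8 oligodendrocyte lineage markers, 5 were higher at 50 ppm at an unadjusted p under 0.05 and 1, *Bcas1*, had an adjusted p under 0.05 (0.0375 with edgeR). The 5 were also higher at that unadjusted threshold in all 14 alternatives. The number with an adjusted p under 0.05 was 4 with DESeq2 and 5 without a filter. It was 3 without 0 ppm replicate 3 and 4 without 50 ppm replicate 3. Of all genes, 0.0952%, 0.192%, 0.0880% and 0.0352% were at that adjusted threshold in these fits. For *Bcas1* the adjusted p was over 0.05 with the minimum of 10 counts in 4 libraries, without 0 ppm replicates 1 and 2 together and without any 1 library except 0 ppm replicate 3 or 50 ppm replicate 3, and it reached 0.384 without 50 ppm replicate 4. Their summed level was 381, 363, 410 and 372 CPM in controls and 451, 482, 381 and 486 CPM in exposed brains, and *Pdgfra*, the receptor of their progenitors, was the most abundant with a mean of 125 CPM. Of 6 radial glia and astrocyte markers 3 were higher at an unadjusted p under 0.05, and 5 without 0 ppm replicate 1. None had an adjusted p under 0.05 in the fit reported. At that adjusted threshold there were 2 without a filter (*Aqp4* and *Gja1*) and 2 without 0 ppm replicate 3 (*Aldoc* and *Aqp4*). The summed level of the 6 was 1534, 1124, 1669 and 1445 CPM in controls and 1656, 1713, 1531 and 1712 CPM in exposed brains, with *Fabp7* the most abundant at 547 CPM. Among the controls that sum was highest in 0 ppm replicate 3 and lowest in 0 ppm replicate 2, the same brains in which *Cdkn1a* was highest and lowest, and its part in the *Cdkn1a* values was not tested.

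Of 6 microglia markers 3 were higher at an unadjusted p under 0.05, but none without 0 ppm replicate 2 or without 50 ppm replicate 2 and 1 without 0 ppm replicate 4 or without 50 ppm replicate 4, with summed levels of 77.6, 65.7, 74.2 and 68.4 CPM in controls and 80.0, 86.9, 76.5 and 93.5 CPM in exposed brains and *Csf1r* as the most abundant (35.0 CPM). Of 8 choroid plexus and meningeal markers 2, *Ptgds* and *Igf2*, were higher at an unadjusted p under 0.05. *Igf2* was not at that threshold without 0 ppm replicate 4, 50 ppm replicate 1 or 50 ppm replicate 4. Another gene on the same strand covers 62.8% of the exon length of *Igf2*, where its counts are uncertain. *Col1a1* joined these 2 without 0 ppm replicate 3. *Ptgds* had an adjusted p under 0.05 with DESeq2 and without a filter, but not in the fit reported. *Ttr*, the most abundant of the 8 (586 CPM), had a log2 fold change of -0.24 (unadjusted p = 0.353 with edgeR), and 3 of the 8 were negative. This rested on 0 ppm replicate 2, without which *Ttr* was at 0.19 (unadjusted p = 0.288) and all 8 were positive. The sum of the 8 was 1309, 1909, 1176 and 1153 CPM in controls and 1338, 1424, 1370 and 1644 CPM in exposed brains. No marker among 6 of blood cells, 6 of endothelium, 6 of skeletal muscle and the 5 tested of neurons had an unadjusted p under 0.05 with edgeR. With 1 library left out at most 1 marker of each of these lists did, except that 4 of blood cells were lower without 50 ppm replicate 3. In that fit 1.31% of all genes were lower at this threshold. The summed blood cell markers ranged from 101 to 404 CPM, both in exposed brains, those of endothelium from 176 to 231 CPM, and those of muscle from 7.28 to 9.44 CPM. The part of these cell type differences in the values of *Bbc3* was not tested.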

How the data were processed

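Each library came from the brain of 1 newborn female pup. After the first bases were trimmed, the authors used STAR for alignment and htseq-count for counting, and the deposited values are raw counts per gene without normalization. The versions and the strand setting are not given in the sources used here. The counts of the alignment to the C57BL/6J genome (GRCm38) were used, in which all 8 columns matched a sample label. Reads from the CAST/EiJ allele that differ from this genome may align less often, in both doses alike. The table of the CAST/EiJ alignment was not used here.

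A gene was dropped if more than 2/3 of the libraries had 0 counts. The deposited counts were converted to CPM after TMM normalization in edgeR 4.0.16 (R 4.3.3). Doses were compared by the quasi-likelihood functions glmQLFit and glmQLFTest in a model of treatment alone, with p-values adjusted by Benjamini-Hochberg over the whole table and a threshold of 0.05. The standard error is the absolute log2 fold change over the square root of F, and 95% intervals use the total degrees of freedom. No adjustment was made over the 10 genes alone. Log2 CPM for correlations had a prior count of 2. The alternatives were DESeq2 (1.42.0) with default settings, its size factors in edgeR, no filter, at least 10 counts in at least 4 libraries, a robust fit, each library left out in turn, and, added after the data were seen, 0 ppm replicates 1 and 2 left out together. The 12 pairs of libraries within a dose differed by more than sampling noise (chi-square per degree of freedom 8.67 to 21.1).

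Gene names came from Ensembl tables, and positions, exon lengths and exon overlaps from the GENCODE annotation of GRCm38. The code was tested on simulated counts. Python 3.11.15 with matplotlib 3.10.9 was used for the figures. The 10 genes and the lists were chosen with earlier results of these data known. From each list of pathway genes the text names those with an adjusted p under 0.05 and the 3 with the smallest unadjusted p, and for *Cdkn1a* the 5 genes with the highest r, of which 1 is not reported here. *Mcl1*, *Gdf15*, *Lif*, *Bik*, *Dcxr* and *Slc7a11* and the cell type markers named singly were also picked after their values were seen, for what they show of the list.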

Additional observations from a re-analysis of the deposited data

Results flagged for a closer look

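The level of *Mdm2* in 50 ppm replicate 3 was 59.7 CPM, far from the other 3 exposed brains, which lay at 50.2, 49.0 and 49.5 CPM. The gap to the nearest of them was 0.895 of the range of the group, above Dixon's critical value for 4 samples. It was the 1 such case among 20 groups (10 genes at 2 doses), and chance gives about 1 in 20. Without this library the log2 fold change of *Mdm2* was -0.088 (unadjusted p = 0.291 with edgeR).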

How the results depend on the processing

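None of the 10 genes had an adjusted p under 0.05 under any of the 14 alternatives in edgeR or DESeq2, although the number of all genes called was 4 in the fit reported, 22 with DESeq2, 52 without a filter, 2 with the minimum of 10 counts in 4 libraries and 2 to 20 with 1 library left out. At an unadjusted p under 0.05 the 10 genes gave 1 gene with each other tool, filter or scaling, 0 to 2 with 1 library left out (2 without 0 ppm replicate 3, where *Cdkn1a* joined *Bbc3*, and 0 without 0 ppm replicate 4, 50 ppm replicate 3 or 50 ppm replicate 4) and 0 without 0 ppm replicates 1 and 2 together. Of all genes, 3.75% were at that threshold in the fit reported, 2.81% with DESeq2, 3.20% to 5.08% with 1 library left out (5.08% without 0 ppm replicate 3) and 4.28% without 0 ppm replicates 1 and 2. Genes whose groups did not overlap numbered 0 to 1 with 1 library left out, the 1 being *Phlda3* without 0 ppm replicate 3, against 4.05% to 5.52% of all genes (5.52% in that fit). The median log2 fold change of the 10 lay between -0.086 and -0.014 with 1 library left out. Of 140 values of single genes, 131 kept their direction. Over the fits without single libraries, log2 fold changes ranged from -0.088 to 0.0061 for *Mdm2*, -0.028 to 0.0998 for *Ccng1*, -0.018 to 0.30 for *Cdkn1a*, -0.21 to 0.015 for *Eda2r*, -0.20 to -0.0090 for *Sesn2*, 0.13 to 0.23 for *Phlda3*, -0.16 to -0.032 for *Trp53*, -0.10 to -0.037 for *Bax* and -0.44 to 0.19 for the marker *Ttr*. Without 0 ppm replicates 1 and 2 it was -0.18 for *Cdkn1a*, 0.028 for *Trp53* and 0.29 for *Ttr*. The cause of these turns was not tested. A prior count of 0.5 left 0 of 45 pairs past the threshold. The alignment to the CAST/EiJ genome was not run, since identifiers of the 10 genes in it were not paired with names in the tables used here. No paired analysis was possible because the replicate numbers follow only the order of the samples and each pup came from a different litter. With 4 brains a dose, differences smaller than the intervals given could not be resolved.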
